A study of Mus musculus with 5 samples.

Results

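The SOCS family (suppressors of cytokine signalling) was examined in mouse mammary gland at birth, as the 8 genes Cish, Socs1, Socs2, Socs3, Socs4, Socs5, Socs6 and Socs7 among 22609 genes with a deposited value. The members were taken by symbol, and all 8 stood in the table. RNA sequencing had been done on whole glands without lymph nodes, from outbred mice that had delivered less than 12 hours earlier, in 2 wild-type libraries and 3 libraries labelled as Nfib-null. Nfib codes for nuclear factor I/B, which binds DNA and regulates transcription, and the sample labels do not state which promoter or cell type, if any, limited its deletion, nor whether a library held 1 animal or a pool. The values were the authors' RPKM (read counts corrected for gene length and library size) as 1 mean per group, so no difference below has a replicate check, a standard deviation or a p-value. The wild-type column was assigned by the name it shares with its libraries and the Nfib-null column, headed NfibFF-WC, by elimination. That header reads like a genotype but no label spells it out, and values of the 2 columns are given below as those of Nfib-null and wild-type glands.

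SOCS proteins are made in response to cytokine and hormone signals and then shut the same signals down. Each has an SH2 domain, which binds phosphorylated tyrosines on receptors or kinases, and a SOCS box, which recruits a ubiquitin ligase that marks the bound protein for breakdown. SOCS1 and SOCS3 also block the catalytic site of Janus kinases (JAKs), the receptor-bound enzymes that activate STAT transcription factors. In the mammary gland prolactin acts through JAK2 and STAT5 to drive milk gene expression, with Cish as a well-known STAT5 target, whereas STAT3 and its target Socs3 are best known from involution, the regression of the gland after weaning.

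The opposite members of the family were Cish, lower in Nfib-null glands, and Socs3, higher in them, and their promoters are shown here for the STAT element TTCNNNGAA. RefSeq windows of build GRCm38.p6 (not the submitters' build mm9) were matched for 4 of the 8 genes, namely Cish, Socs1, Socs3 and Socs4, and not for Socs2, Socs5, Socs6 and Socs7. The stretches below run from 250 bases before the RefSeq start to 30 bases after it, at chr9:107296409-107296688 on the plus strand for Cish and chr11:117969337-117969616 on the minus strand for Socs3. Capitals mark the matches to TTCNNNGAA, a motif that reads the same on both strands.
Cish: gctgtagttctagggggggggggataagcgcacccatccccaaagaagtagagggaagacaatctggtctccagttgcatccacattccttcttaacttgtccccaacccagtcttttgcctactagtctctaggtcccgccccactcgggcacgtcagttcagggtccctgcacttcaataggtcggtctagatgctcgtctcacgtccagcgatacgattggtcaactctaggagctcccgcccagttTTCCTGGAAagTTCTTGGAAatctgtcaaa
Socs3: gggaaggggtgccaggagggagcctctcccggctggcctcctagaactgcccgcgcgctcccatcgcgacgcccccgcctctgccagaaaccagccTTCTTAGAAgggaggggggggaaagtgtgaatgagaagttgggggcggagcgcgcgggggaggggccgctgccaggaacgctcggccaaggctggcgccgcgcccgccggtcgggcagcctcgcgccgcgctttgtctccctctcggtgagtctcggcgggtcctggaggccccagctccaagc
The Cish window held 2 such elements close together, TTCCTGGAA from base 1 of the transcript and TTCTTGGAA from base 12. The Socs3 window held 1, TTCTTAGAA, from base −154 relative to the start, and the windows of Socs1 and Socs4 held 0. Among all 32851 windows of the whole length, 250 bases before to 50 after a start, at least 1 match was held by 8.30% and 2 or more by 0.457%. The wider-spaced element preferred by STAT6, in 6.95% of all windows, and the full NFI palindrome, in 0.0365%, were in 0 of the 4 windows. The arm of that palindrome, TTGGC, searched on both strands, was in the Socs3 window, as GCCAA from base −70, and in 46.7% of all windows. These matches describe letters in the windows, not binding.

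Levels are compared first as deposited, since RPKM is per length and allows comparison between genes. In wild-type glands Cish stood at 38.7 RPKM, far above the other members. The next was Socs2, the member that restrains growth hormone signalling, at 8.24 RPKM, or 21.3% of the Cish level. Below it came Socs4 (7.01 RPKM), Socs6 (6.52), Socs7 (4.87), Socs5 (4.74), Socs3 (3.95) and, lowest, Socs1 (0.729). The steps between Socs4 and Socs6 and between Socs7 and Socs5 were small, and without values per library their order has no error to be read against. In Nfib-null glands Cish was still the highest at 21.3 RPKM, but Socs3 was second at 15.0 RPKM, or 70.1% of the Cish level. Socs2 followed at 12.7 RPKM, then Socs6 (9.55), Socs5 (8.90), Socs4 (5.23), Socs7 (5.04) and Socs1 (1.31). Socs3 thus stood at the seventh place of the family in wild-type glands and at the second in Nfib-null glands, and Socs4 at the third and the sixth. The span from the lowest to the highest member was 53.1-fold in wild-type glands and 16.3-fold in Nfib-null glands.

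**Figure D1:**
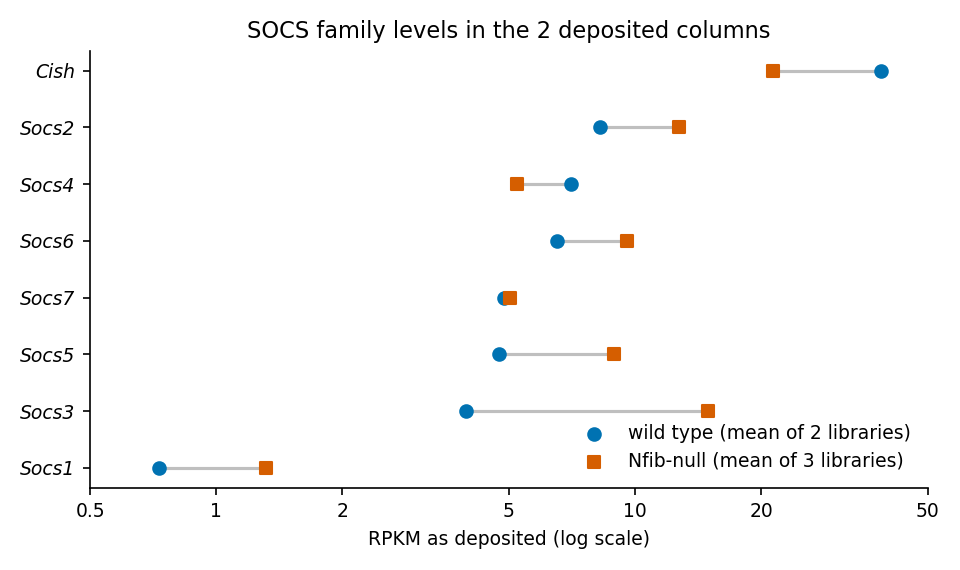
Level of each SOCS gene on the x axis, in RPKM as deposited on a log scale, as the authors' mean of 2 wild-type libraries (circles) and of 3 Nfib-null libraries (squares), with genes ordered by their wild-type level and no error bars because values per library were not used. Cish is the rightmost gene in both columns, and Socs3 shows the widest gap, from 3.95 to 15.0 RPKM.

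The summed level of the 8 genes was 79.1 RPKM in Nfib-null glands and 74.7 in wild-type glands as deposited. Its direction turned with the scaling, to 68.6 against 86.2 after median-ratio scaling and 53.5 against 110.5 with scaling to luminal epithelial genes. Cish held 51.7% of the sum in wild-type glands and 27.0% in Nfib-null glands. Socs3 held 5.28% and 18.9%. Socs2 held 11.0% and 16.1%, Socs5 6.34% and 11.3%, Socs6 8.72% and 12.1%, and Socs4 9.39% and 6.61%. The shares of Socs7 (6.52% and 6.38%) and Socs1 (0.975% and 1.66%) were small in both. Such shares do not depend on how the columns are scaled to each other by a factor.

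**Figure D2:**
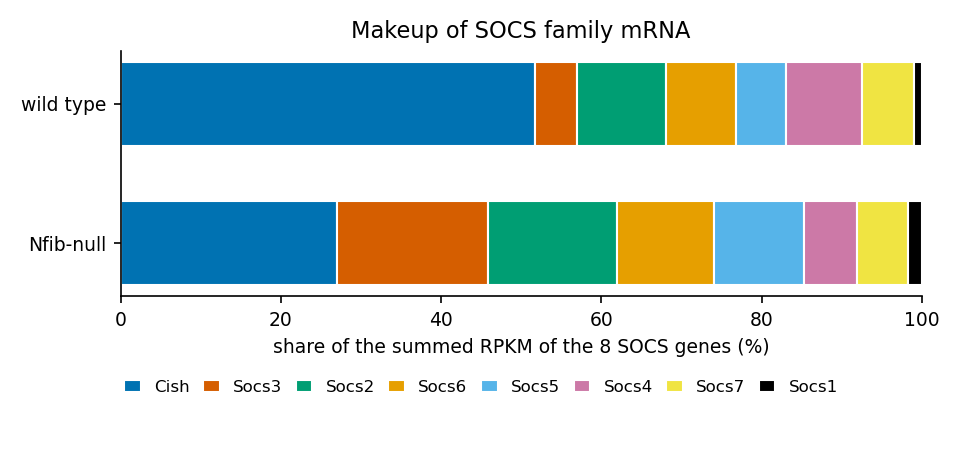
Share of each SOCS gene, in percent on the x axis, of the summed RPKM of the 8 genes, with 1 bar for each column. The Cish segment is 51.7% in wild-type glands and 27.0% in Nfib-null glands, and the Socs3 segment 5.28% and 18.9%.

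Ratios between members are free of such scaling too, and all 28 pairs were compared as deposited, with no pseudocount. In 14 pairs the ratio differed by at least 2-fold between the columns, and 11 of these pairs included Cish or Socs3. Cish stood 9.80 times as high as Socs3 in wild-type glands and 1.43 times in Nfib-null glands, a difference of 6.87-fold between these ratios. Relative to each of the 7 other members Socs3 was higher in Nfib-null glands, by 2.02-fold against Socs5 at the least. Relative to each of the 7 others Cish was lower, by 1.35-fold against Socs4 at the least, and in 5 of the 7 pairs by 2-fold or more. The 3 pairs past 2-fold without Cish or Socs3 all set Socs4 lower, against Socs1 (2.42-fold), Socs2 (2.07-fold) and Socs5 (2.52-fold). Socs2, Socs5, Socs6 and Socs1 kept ratios to each other within 1.28-fold.

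The columns were then compared after median-ratio scaling, as log2(scaled RPKM + 1) of Nfib-null glands less that of wild-type glands, among the 12511 genes whose mean over the 5 libraries reached 1 RPKM. All 8 members passed this minimum. Socs1 did so at a mean of 1.08 RPKM, with the wild-type value below 1 and the Nfib-null value above it. With differences of 2-fold or more called, 1 of the 8 members, Socs3, was higher in Nfib-null glands, where 6.95% of all genes were called higher. Also 1 of the 8, Cish, was lower, where 5.97% of all genes were called lower. A count of 1 in so small a family does not set it apart from all genes. As deposited, where 14.4% of genes were called higher and 2.95% lower, the counts were 1 member higher and 0 lower. With scaling to luminal epithelial genes (1.77% higher and 24.9% lower) they were 0 and 2, the second being Socs4, and with a pseudocount of 5 (2.77% and 3.55%) 0 and 1. At a limit of 1.5-fold (17.1% and 14.7%) 1 member was higher and 2 lower, and at 4-fold (0.727% and 1.23%) 0 were called. The median over the 8 members was 0.16, against 0.00 over all genes kept (1.78e-05).

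Socs3 encodes the inhibitor that binds gp130 and the leptin receptor and restrains STAT3 signalling by the interleukin-6 family. Its value after scaling was 13.0 in Nfib-null glands and 4.55 in wild-type glands, a 2.85-fold difference before the pseudocount and 1.33 on the log2 scale. By this difference it ranked 411 among 12511 genes from the top. It was above 0 under all 8 other scalings, pseudocounts and minimums, from 0.70 with scaling to luminal epithelial genes to 1.69 as deposited. It fell short of 2-fold with luminal scaling and with a pseudocount of 5 (0.91).

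Cish encodes CIS, which occupies receptor tyrosines that STAT5 would bind. Its scaled value was 18.5 in Nfib-null glands and 44.6 in wild-type glands, 2.41-fold lower before the pseudocount and −1.23 on the log2 scale. That difference was lower than in all but 3.83% of the genes kept. It was below 0 under all 8 alternatives, from −1.91 with luminal scaling to −0.83 as deposited, and the as-deposited value alone was within 2-fold. Cish and Socs3 thus kept opposite signs under each of these settings.

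Socs2, another STAT5 target, did not share the direction of Cish after median-ratio scaling. It differed by 0.20 then, by 0.57 as deposited and by −0.46 with luminal scaling, so that its direction depended on the scaling. Socs1, the inhibitor best known for restraining interferon gamma signalling, was low in both columns, above only 2.65% and 2.73% of the genes kept in the Nfib-null and wild-type columns. Socs1 lay just above the minimum mean, which removed 10098 genes, so a low place among the genes kept follows from it. Its difference was 0.22 after scaling and turned below 0 with quantile normalization (−0.0084) and with luminal scaling (−0.14).

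The remaining members carry long N-terminal regions and act largely on receptor tyrosine kinases. Socs5, linked with Socs4 to the breakdown of the EGF receptor, differed by 0.43, which turned to −0.19 with luminal scaling. Socs4 differed by −0.72, was below 0 under all 8 alternatives and passed 2-fold with luminal scaling (−1.33). The related genes Socs4 and Socs5 therefore stood on opposite sides of the family, with the ratio of Socs5 to Socs4 2.52-fold higher in Nfib-null glands. Socs6, which binds KIT and insulin signalling proteins, differed by 0.12 after scaling and by −0.51 with luminal scaling. Socs7, which binds insulin receptor substrates, differed by −0.30 after scaling and by 0.04 as deposited. None of Socs1, Socs2, Socs5, Socs6 and Socs7 passed 2-fold under any of the scalings, pseudocounts and minimums tried.

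**Figure D3:**
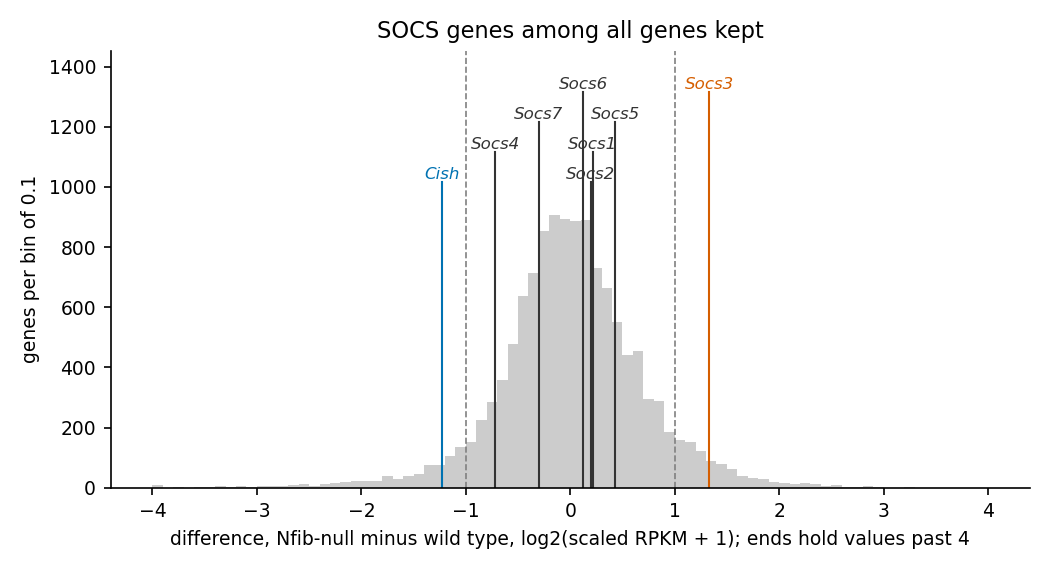
Histogram of the difference for 12511 genes, Nfib-null less wild type in log2(scaled RPKM + 1) on the x axis and genes per bin of 0.1 on the y axis, with a line for each SOCS gene and dashed lines at 2-fold. Socs3 (1.33) and Cish (−1.23) lie outside the dashed lines and the 6 other members between them.

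**Figure D4:**
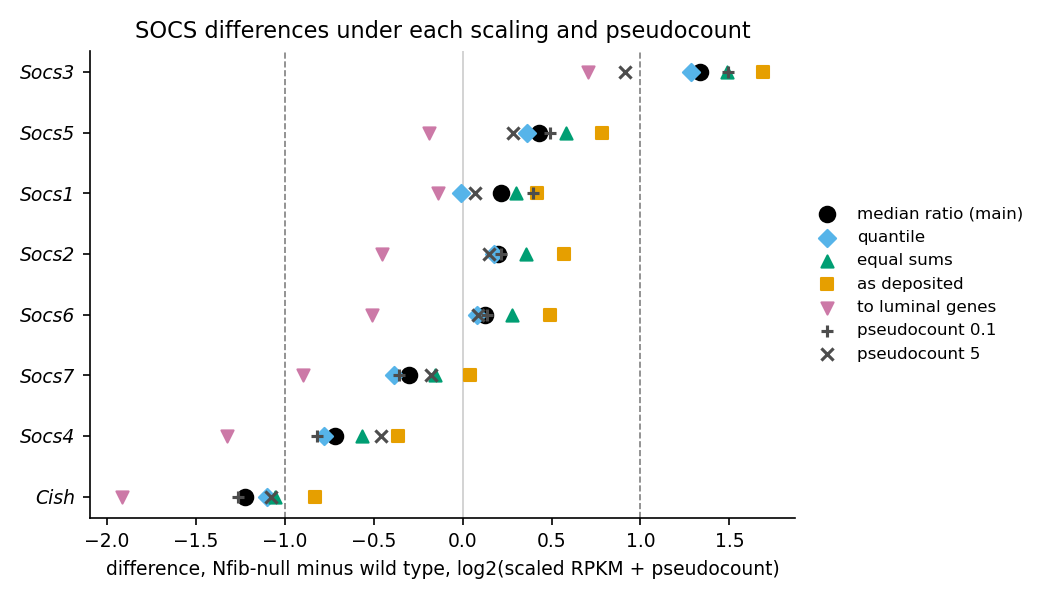
Difference of each SOCS gene on the x axis, Nfib-null minus wild type in log2(scaled RPKM + pseudocount), under the main and 6 other scalings and pseudocounts, with dashed lines at 2-fold. Points for Socs3 all lie to the right of 0 (0.70 to 1.69), those for Cish and Socs4 all to the left, and the other members cross 0.

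The depth behind these values was approximated from the smallest steps between low values, with transcript lengths from GENCODE M21 (GRCm38). Only the 2 clearest steps in each column were sought. They corresponded to about 14900000 and 17700000 reads in wild-type glands and to about 27200000 and 32800000 for 2 of the 3 Nfib-null libraries. With these depths Socs1, the thinnest member, rested on about 69.1 reads in wild-type glands and 229 in 2 Nfib-null libraries, Socs3 on about 328 and 2290, and Cish on about 3590 and 3650. These counts take the longest coding transcript as each gene's length, which may differ from the length behind the deposited RPKM. They are approximate and say nothing of the spread between animals. Some wild-type genes of high value share exactly the same RPKM, such as Wap and Glycam1, but 0 other genes shared the value of any SOCS member in either column. Nfib itself stood at 55.3 RPKM in Nfib-null glands and 33.7 in wild-type glands, a difference of 0.30 that turned to −0.40 with luminal scaling. A whole-gene value can include exons outside a deleted part, so it does not check the labels.

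The columns also differed in genes that mark the cell types of the gland, and fewer cells of a type cannot be told apart from less RNA per cell. Calls are after median-ratio scaling, where 6.95% of all genes were higher and 5.97% lower, and sums are of RPKM as deposited unless stated. Of 12 adipocyte markers 10 passed 2-fold as higher in Nfib-null glands and 0 as lower, with a summed level of 14450 against 3508 RPKM. Of 10 fibroblast markers 9 were higher (1822 against 488 RPKM in sum), and of 10 macrophage markers 8 were (460 against 136), with 0 lower in either list. Luminal scaling (1.77% of all genes higher and 24.9% lower) also took Socs3 within 2-fold. With it 8 adipocyte, 2 fibroblast and 0 macrophage markers were higher and 1 adipocyte marker was lower. These lists differed in the direction of Socs3, no marker of them was at 0 in either column, and their part in the Socs3 difference was not tested. All 8 milk protein genes were lower, as Cish was, with a sum of 143840 against 585437 RPKM. However, quantile normalization, in which genes of equal rank receive equal values, left 3 of the 8 lower and turned Csn1s1 to 0.75. Of the 12511 genes kept, 696 were lower with that normalization. Of 14 luminal epithelial markers 5 were higher and 1 lower (2317 against 1633 RPKM in sum). Of 10 basal markers 0 passed 2-fold (1342 against 852), nor did any of 8 endothelial markers (188 against 137). After median-ratio scaling the sums were closer, at 2009 against 1883 for luminal, 1164 against 982 for basal and 163 against 158 for endothelial markers. Of 10 lymphocyte markers above the minimum 6 were lower (20.6 against 37.8 RPKM over all 11), and of 3 neutrophil markers above it 0 passed 2-fold. No marker in these lists was at 0, and their part in the Cish difference was not tested either.

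The kinases and STAT factors that SOCS proteins act on lay within 2-fold after median-ratio scaling. None of the 4 JAK genes passed 2-fold, with differences from 0.01 for Jak1 to 0.48 for Jak3, and none of the 5 STAT genes analysed above the minimum did. Stat3, the activator of Socs3, stood nearest at 104 against 40.1 RPKM (0.95). Stat3 was past 2-fold as deposited (1.36) and with quantile normalization (1.19), and stood at 0.25 with luminal scaling. Stat5a, an activator of Cish, was lowest at 55.7 against 63.7 RPKM (−0.59). Stat5a stood at −0.19 as deposited, −0.39 with quantile normalization and −1.30 with luminal scaling. The 8 genes listed as SOCS box partners code for ubiquitin ligase parts or for proteins that act on them. None of the 8 passed 2-fold, though 4 were lower with luminal scaling, under which 24.9% of all genes were. Their differences ran from −0.42 for Cul2 to 0.02 for Ube2f, with the elongins Tceb1 and Tceb2 at −0.18 and −0.39. Cul5, the main cullin of SOCS complexes, stood at 7.29 against 6.62 RPKM as deposited (0.12) and at −0.24 after median-ratio scaling.

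Receptors whose signals SOCS proteins restrain were mixed. RPKM are given as deposited, and differences and calls after median-ratio scaling, where 6.95% of all genes were higher and 5.97% lower. A count of 1 in lists this short does not set them apart from all genes. Of 4 hormone-type receptors above the minimum 1 was lower, the prolactin receptor Prlr, upstream of Cish, at 9.13 against 18.0 RPKM (−1.29), within 2-fold as deposited (−0.91), and 0 were higher. Of 7 gp130-family receptors 2 were higher and 0 lower, the oncostatin M receptor Osmr at 25.2 against 4.83 RPKM (1.80) and Cntfr at 3.64 against 0.650 (1.25). Cntfr and the ligand gene Lif passed the minimum through the Nfib-null value alone, which favours a higher call. Of 4 ligands of gp130 and the related leptin receptor above the minimum 2 were higher, leptin (Lep, 94.7 against 13.5 RPKM, 2.32) and Lif (2.61 against 0.368, 1.19), and 0 lower. Of 7 interferon and related receptors 1 was higher, the interferon lambda receptor Il28ra at 11.2 against 1.72 RPKM (1.84). Of 11 common-chain and type 2 receptors 1 was higher, Il13ra1 (1.51), and 1 lower, Il4ra (−1.44), the subunits that pair to bind interleukin-4 and interleukin-13. Of 15 receptor kinases and adaptors linked to SOCS proteins 4 were higher, led by Kit, a SOCS6 partner (63.9 against 5.72 RPKM, 2.89), and 0 lower. The 3 others were Met (1.17), Csf1r (1.11) and Pdgfra (1.08). Some of these genes are counted in other lists too. Csf1r is also in the macrophage, Pdgfra in the fibroblast, Lep in the adipocyte and Kit in the luminal list. Prlr is also in the STAT5 target list, and Osmr and Il4ra are in the STAT3 target list. With luminal scaling Osmr (1.15), Lep (1.63), Il28ra (1.27) and Kit (2.23) were still past 2-fold, while Cntfr, Lif, Il13ra1, Met, Csf1r and Pdgfra were not. Kit is itself among the luminal markers that set this scaling.

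Beside Cish and Socs3, the other genes of each STAT target list were counted without SOCS members. Among all genes kept, 6.95% were higher and 5.97% lower after median-ratio scaling. Of 13 STAT5 targets 9 were lower, led by Cidea (−4.33) and Wap (−3.91), and 2 were higher, Bcl2l1 (1.42) and Igf1 (1.06), with a median of −1.34. With values as deposited 6 were lower, where 2.95% of all genes were. With quantile normalization 5 were lower, without the caseins, Wap and Pim1, where 696 of the 12511 genes kept were. After median-ratio scaling the lower ones included milk genes, and Cish stood on their side while Socs2 did not. Of 25 STAT3 and acute phase targets 10 were higher, led by Chi3l1 (4.47), Cd14 (2.68) and Fos (2.55), and 5 lower, led by Orm2 (−3.60) and Orm1 (−1.82), with a median of 0.89. Socs3 stood on the side of the higher ones. With luminal scaling (1.77% of all genes higher and 24.9% lower) 7 were higher and 6 lower, with a median of 0.18. Of 10 genes of the growth hormone and IGF axis, which Socs2 restrains, 2 were higher, Igfbp5 (2.52) and Igf1, and 1 lower, Igfals (−1.55).

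**Figure D5:**
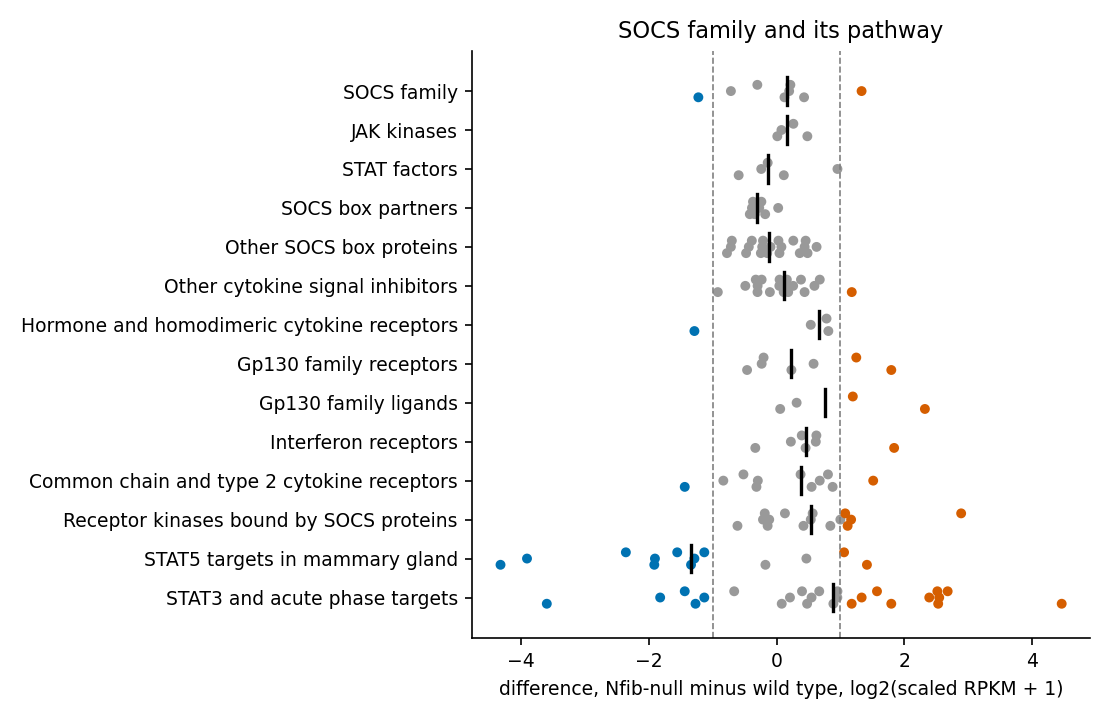
Difference of each gene above the minimum on the x axis, Nfib-null less wild type in log2(scaled RPKM + 1), for the SOCS family and 13 lists of its pathway, with a black bar at each list's median, dashed lines at 2-fold, and orange points for genes higher and blue points for genes lower by that limit. The SOCS median is 0.16, with Cish to the left of the dashed lines and Socs3 to the right.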

How the data were processed

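Poly(A) RNA of whole mammary glands, extracted with TRIzol, was sequenced on an Illumina HiSeq after TruSeq preparation, per the labels' protocols. Per the submitters' processing notes, reads went through CASAVA and TopHat with build mm9, and no version is stated. How reads were counted, on which gene models and whether by strand is not given in the sources used here, so overlapping genes on opposite strands cannot be told apart. The values were deposited as RPKM, per the file headers, in 2 columns that each hold a group mean.

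From these RPKM, genes were kept whose mean, weighted by 3 and 2 libraries, reached 1 RPKM, which removed 10098. The columns were divided by 1.153 (Nfib-null) and 0.867 (wild type), which sets a median log2 ratio of 0.41 to 0. Luminal scaling instead divided them by 1.478 and 0.676, which sets the median log2 ratio of the 14 luminal epithelial markers to 0. After median-ratio scaling those markers themselves ran from −1.56 (Elf5) to 2.89 (Kit). Differences are of log2(scaled RPKM + 1), a scale that understates the change of low genes, and a gene was called from 2-fold. limma, leaving out each library and a replicate block need values per library and were not run. The members, the 24 gene lists with 271 entries (1 of them, Ly6g, not in the table) and the fold limit were chosen with earlier results of these data known. The named genes are the 8 members, the JAK, STAT and SOCS box partner lists (1 STAT gene and 1 further list are not reported here), and from every other list genes past 2-fold, largest first, at most 4 in each direction. Promoter windows came from RefSeq (GRCm38.p6). Scaling and calling were run on simulated columns with set changes and no noise, as a check of the code. Luminal scaling was not included, and the simulation does not measure error in the deposited values. Python 3.11.15, numpy 2.4.6, pandas 2.3.3 and matplotlib 3.10.9 were used.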

Additional observations from a re-analysis of the deposited data

How the results depend on the processing

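The higher call of Socs3 held with equal sums once the 20 most abundant genes were set aside, quantile normalization, values as deposited, a pseudocount of 0.1, no minimum, a minimum mean of 5 RPKM and a fold limit of 1.5. The count of higher members was 0 with scaling to luminal epithelial genes, with a pseudocount of 5 and with a fold limit of 4. The count of lower members was 0 with values as deposited and with a fold limit of 4, and 2 (Cish and Socs4) under luminal scaling and at a fold limit of 1.5. The family median of 0.16 was 0.037 with quantile normalization, 0.29 with equal sums, 0.45 as deposited and −0.48 with luminal scaling. The median of all genes was 0.15 with equal sums, 0.35 as deposited, −0.61 with luminal scaling and −0.012 with quantile normalization, and the cause of the shift under the latter was not tested. A minimum mean of 5 RPKM left 6 members, without Socs1 and Socs7. No paired analysis was possible because the columns hold group means that carry no replicate number. Leaving out each replicate was not run for the same reason. Depth is approximate, and since only 2 steps per column were sought, 1 of the 3 Nfib-null libraries has no depth estimate.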

Other observations

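Other genes listed for a SOCS box or a similar box, which code for proteins with other binding domains, lay within 2-fold. Of 20 such genes above the minimum 0 were higher and 0 lower, with a median of −0.12. With luminal scaling 6 of the 20 were lower, where 24.9% of all genes were. Of 19 other inhibitors of cytokine signalling, among them phosphatases and PIAS proteins, 1 was higher and 0 lower, with a median of 0.11. That does not set the list apart from all genes, of which 6.95% were higher and 5.97% lower. The higher one was the interleukin-1 receptor antagonist Il1rn (2.62 against 0.386 RPKM, log2 1.18). Il1rn passed the minimum through the Nfib-null value alone and lay within 2-fold with quantile normalization (0.99) and luminal scaling (0.82). Cbl, named after its value was seen, differed by −0.92 and was lower with quantile normalization (−1.05).

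The STAT element TTCNNNGAA that the Cish and Socs3 windows hold was counted over all genes kept that matched the RefSeq windows. Of 742 genes with it 8.22% were at least 2-fold lower in the Nfib-null column and 5.66% higher. Of 8108 genes without it 5.87% were lower and 6.61% higher. Outside the SOCS family it was in the windows of 3 of 12 matched STAT5 targets (Csn2, Csn1s1 and Prlr) and 0 of 17 STAT3 and acute phase targets. These counts are a description of letters in windows of fixed length.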
